A study of Homo sapiens with 12 samples.

Results

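The comparison set the 2 libraries labelled Addback EDTA against the 2 labelled B4-4 EDTA, which are 4 of the 12 RNA-seq libraries of the series. The members were taken by column name from the table of read counts, by a rule that uses no measured values. Earlier results of these data were known when the members and the gene lists were chosen. The other 8 libraries served only to estimate the spread between replicates and to give levels for reference. All libraries came from MCF10-A cells, an immortal but non-malignant line of human breast epithelium, in 3 derivatives called Vector, B4-4 and Addback, each with the treatment labels NA and EDTA and 2 libraries per combination. Cells of every group had been detached with trypsin and held for 3 h in serum-free medium on dishes coated with poly-HEMA, a polymer to which cells cannot attach, after passaging in medium with 5% horse serum. EDTA is a chelator that binds calcium and other divalent cations. The sources used here do not say how either derivative was built, whether each is 1 clone, what NA stands for, or at which dose and for how long EDTA was present. The 2 groups compared shared the detachment, the serum-free medium and the EDTA label, and differed in the derivative. The labels do not say that replicates came from separate cultures, so each p-value is set against the spread among these libraries alone, and that spread may be technical.

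ITGB4 encodes the beta 4 chain of an integrin that pairs only with the alpha 6 chain. The alpha 6 beta 4 integrin binds laminin-332 in the basement membrane and, through plectin and BP230 inside the cell and type XVII collagen beside it, links the keratin filaments to the matrix in hemidesmosomes. Type VII collagen anchors the basement membrane from the other side. Basal mammary epithelial cells rely on such contacts, and detached cells that lose them can die by several routes, including anoikis and ferroptosis.

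The 4 compared libraries held 17165326 and 18193449 counts in Addback EDTA and 19810710 and 19398488 counts in B4-4 EDTA, within a range of 15685376 to 22156173 over the 12. Replicates lay closer together in B4-4 EDTA. Within each pair, the biological coefficient of variation was 15.6% in Addback EDTA and 4.12% in B4-4 EDTA, and at least 2-fold differences between replicates were seen for 135 of 9358 well expressed genes in Addback EDTA against 3 in B4-4 EDTA. Addback EDTA 2 is also the only library whose label ends in lane 7, while the 11 others end in lane 8. The part of the lane in the differences between the Addback EDTA replicates was not tested. Many results are therefore also given without single libraries. The leave-out counts printed after a count of called list members are the counts in the fits without Addback EDTA 1, Addback EDTA 2, B4-4 EDTA 1 and B4-4 EDTA 2, in that order.

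ITGB4 (ENSG00000132470, chromosome 17, 75721328 to 75757818) was read first, because it checks the labels. Its level was 1264 and 1525 CPM (counts scaled to library size) in Addback EDTA, 372 and 390.0 CPM in B4-4 EDTA and 1678 and 1850.3 CPM in Vector EDTA. Both Addback libraries lay above both B4-4 libraries and below both Vector libraries. ITGB4 was 3.66-fold higher in Addback EDTA than in B4-4 EDTA (log2 1.87, SE 0.29, adjusted p = 0.00471), where each p-value is from edgeR's quasi-likelihood test, adjusted by the Benjamini-Hochberg method over all 15749 genes tested. A gene is called, and said to have risen or fallen in Addback, at an adjusted p under 0.05. The ITGB4 call was just lost without B4-4 EDTA 1 (adjusted p = 0.0514). The difference between Addback and B4-4 was of similar size in NA (log2 1.89, adjusted p = 0.00283), where the B4-4 replicates lay apart at 182 and 395 CPM. The difference between Addback EDTA and Vector EDTA did not pass the test (log2 −0.34, adjusted p = 0.404). A count per gene cannot separate native transcripts from those of any introduced copy.

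Although ITGB4 itself was higher in Addback EDTA, the other called genes of its complex and ligand were lower there. Of 13 tested genes of hemidesmosomes and laminin-binding integrins, ITGB4 rose, 5 fell (leave-out counts 5, 5, 4 and 3) and 7 were not called, with a median log2 fold change of −0.41. Over all tested genes 14.1% were called and the median was 0.01. COL7A1 (ENSG00000114270, chromosome 3, 48564073 to 48595267), the collagen of anchoring fibrils, stood at 32.2 and 31.0 CPM in Addback EDTA against 97.9 and 110.2 CPM in B4-4 EDTA (log2 −1.72, SE 0.13, adjusted p = 8.41e-06). COL17A1 (ENSG00000065618, chromosome 10, 104031286 to 104085957), the transmembrane collagen of hemidesmosomes, stood at 605 and 568 CPM in Addback EDTA against 1036 and 1078 CPM in B4-4 EDTA (log2 −0.85, SE 0.08, adjusted p = 4.97e-05). In both genes the B4-4 EDTA libraries were the highest of all 12.

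Chains of laminin-332 were among the genes that fell. LAMA3 (ENSG00000053747, chromosome 18, 23689443 to 23956222), its alpha chain, stood at 581 and 812 CPM in Addback EDTA against 2061 and 2039.8 CPM in B4-4 EDTA (log2 −1.56, SE 0.21, adjusted p = 0.00115). LAMB3, the beta chain, which was chosen for mention after its values were seen, stood at 629 and 689.6 CPM in Addback EDTA against 2292 and 2518 CPM in B4-4 EDTA (log2 −1.87, SE 0.33, adjusted p = 0.00955). For both chains the Addback EDTA libraries lay far below the B4-4 EDTA libraries and nearer to Vector EDTA, where LAMA3 was 785 and 780.5 CPM and LAMB3 422 and 473 CPM. The LAMB3 call was lost without Addback EDTA 1 (adjusted p = 0.0809) or B4-4 EDTA 2 (adjusted p = 0.0587).

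ITGA6 (ENSG00000091409, chromosome 2, 172427354 to 172506282), the alpha 6 chain that pairs with beta 4, moved in the opposite direction to ITGB4. It stood at 981 and 816 CPM in Addback EDTA against 1383 and 1345 CPM in B4-4 EDTA, and at 899.6 and 805 CPM in Vector EDTA. ITGA6 fell in Addback EDTA relative to B4-4 EDTA (log2 −0.60, SE 0.13, adjusted p = 0.0102), and its call was lost on leaving out B4-4 EDTA 1 (adjusted p = 0.0796) or B4-4 EDTA 2 (adjusted p = 0.0589). The 2 cytolinkers that join the integrin to keratin were not called. PLEC, plectin, was 1395 and 1467 CPM against 1754 and 1744 CPM (adjusted p = 0.0974), and DST, the gene of BP230, was 729 and 829.8 CPM against 706 and 655 CPM (adjusted p = 0.581). Of the 13 genes, 9 had both B4-4 EDTA libraries outside the range of the 10 other libraries, and all 9 were highest there, against 22.5% of all tested genes with B4-4 EDTA outside that range on either side.

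**Figure D1:**
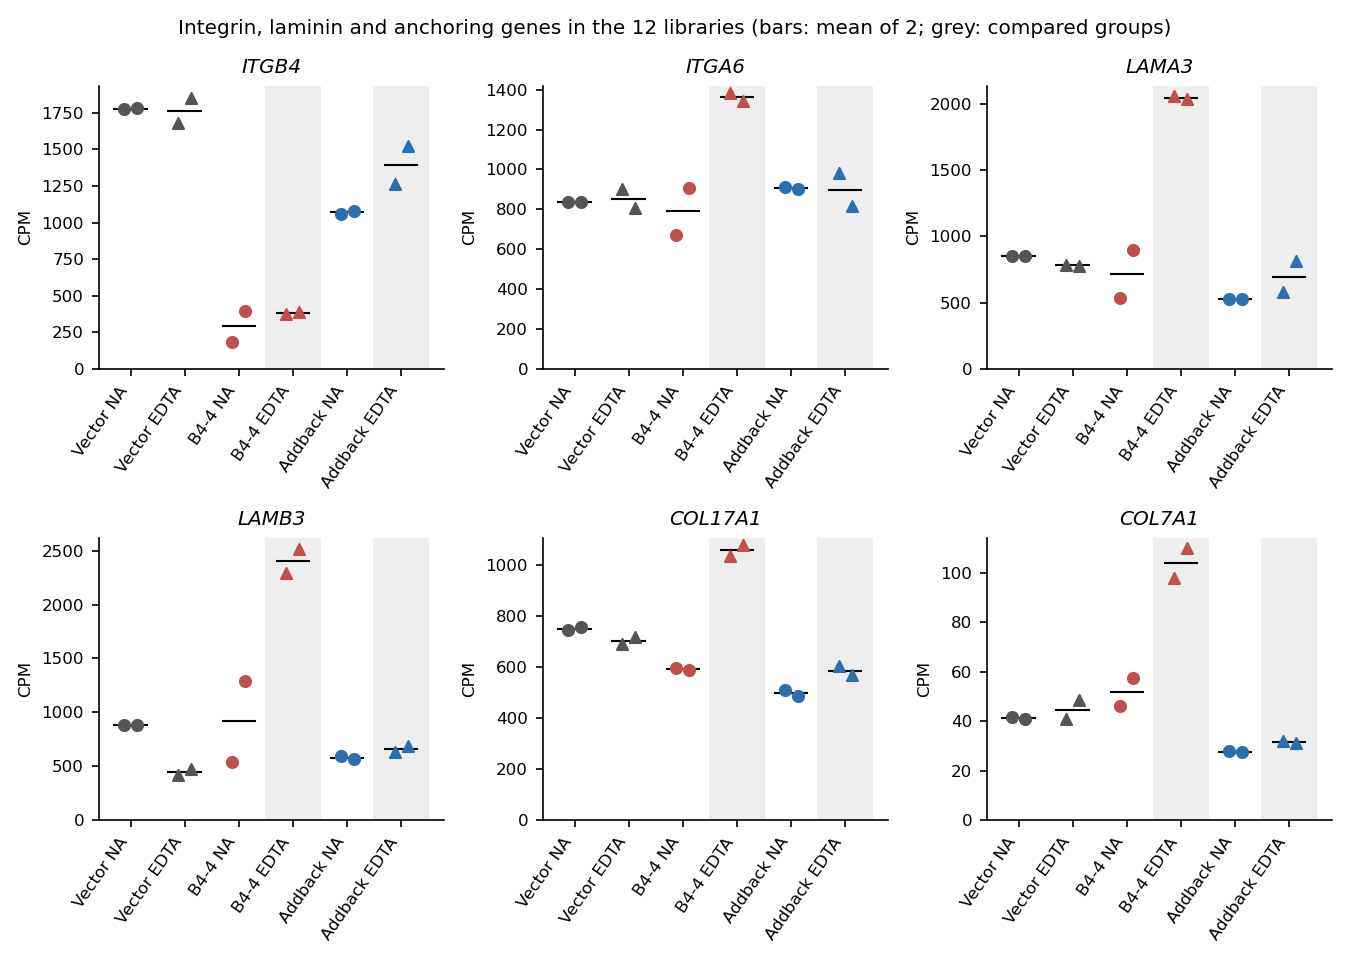
Each panel shows the CPM of 1 gene in the 12 libraries by group, with bars at the mean of 2 libraries and the 2 compared groups on grey. ITGB4 lay at 1264 and 1525 CPM in Addback EDTA against 372 and 390.0 CPM in B4-4 EDTA, while ITGA6, LAMA3, LAMB3, COL17A1 and COL7A1 were highest in the B4-4 EDTA libraries.

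Over the whole table, 2217 of 15749 genes were called (14.1%), 1030 of them higher in Addback EDTA (6.54%) and 1187 lower (7.54%). Of these, 746 differed at least 2-fold (4.74%). The 2 groups did not overlap in 60.0% of all tested genes. The count moved with single libraries of the pair. Leaving out replicate 1 or 2 gave 692 and 735 calls for B4-4 EDTA, and 1126 and 2527 for Addback EDTA, and 541 genes (3.44%) were called in all 4 of these fits, 194 higher (1.23%) and 347 lower (2.20%). The count was 3756 without B4-4 NA 1 and 3670 without B4-4 NA 2, which enter through the shared estimate of the spread.

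**Figure D2:**
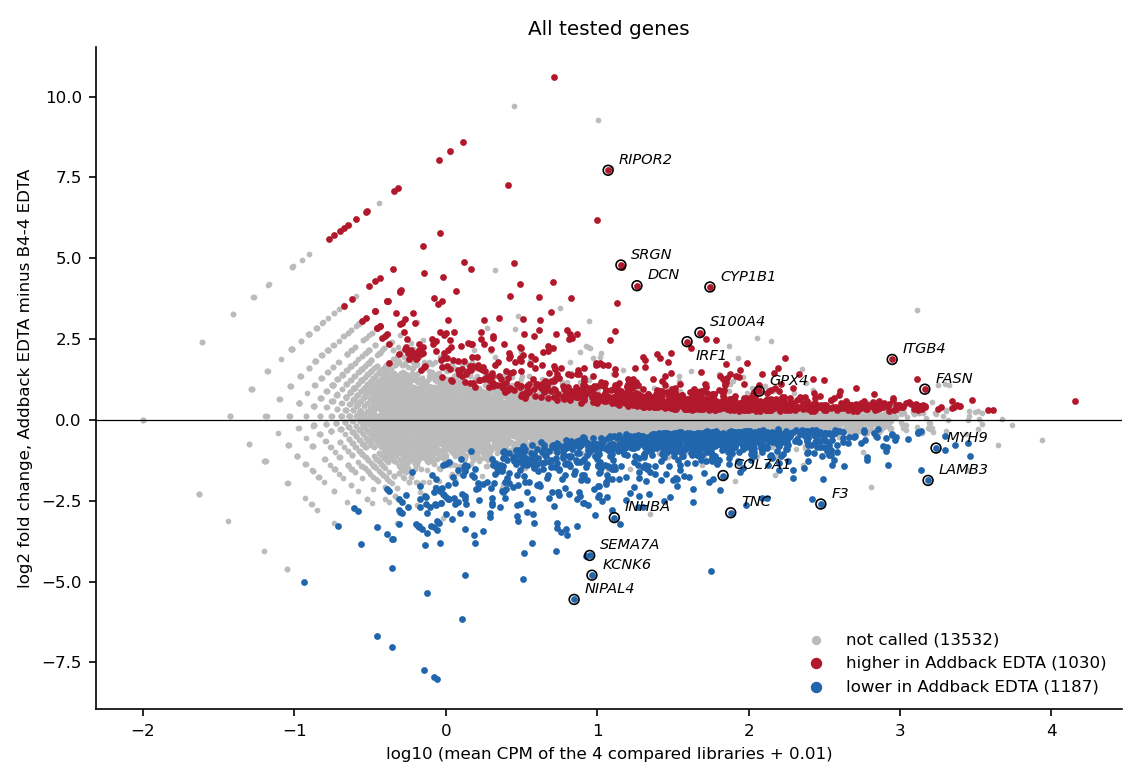
Each point is 1 of the 15749 tested genes, with the log10 of its mean CPM over the 4 compared libraries (plus 0.01) on the x axis and its log2 fold change, Addback EDTA minus B4-4 EDTA, on the y axis. Red marks the 1030 genes called higher and blue the 1187 called lower, and some of the genes named in the text are circled.

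Among receptors for collagen and fibronectin, most called genes were lower in Addback EDTA. Of 14 tested integrin and matrix receptor genes outside the laminin group, 1 rose and 7 fell (leave-out counts 7, 5, 2 and 4), with a median log2 of −0.30. ITGA2 (ENSG00000164171, chromosome 5, 52989326 to 53094779), the alpha chain of a collagen receptor, was 151 and 168 CPM in Addback EDTA against 331 and 322 CPM in B4-4 EDTA (log2 −1.03, SE 0.10, adjusted p = 5.93e-05). ITGA5, the alpha chain of the fibronectin receptor, was 224 and 237 CPM in Addback EDTA against 355 and 373 CPM in B4-4 EDTA (log2 −0.66, SE 0.12, adjusted p = 0.00404). ITGA1, another collagen receptor chain, was 33.5 and 41.6 CPM in Addback EDTA against 66.9 and 55.5 CPM in B4-4 EDTA (log2 −0.70, SE 0.14, adjusted p = 0.00538), and leaving out B4-4 EDTA 1 ended that call (adjusted p = 0.073). All 3 had both Addback libraries below both B4-4 libraries, where 60.0% of all tested genes had no overlap in one direction or the other. The gene that rose was ITGA10, a collagen-binding chain best known in cartilage, at 17.2 and 12.1 CPM in Addback EDTA against 6.05 and 6.87 CPM in B4-4 EDTA (log2 1.18, SE 0.19, adjusted p = 0.002), but Vector EDTA held far more of it, 54.2 and 63.2 CPM.

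A further pair of chains, chosen for mention after their values were seen, pair with each other in a receptor that activates latent TGF-beta. ITGB6 was 56.1 and 106 CPM in Addback EDTA against 449 and 432 CPM in B4-4 EDTA (log2 −2.44, SE 0.42, adjusted p = 0.0092). ITGAV was 125 and 206 CPM in Addback EDTA against 339 and 319 CPM in B4-4 EDTA (log2 −0.99, SE 0.22, adjusted p = 0.0136). The Addback EDTA replicates differed almost 2-fold in ITGB6 and by a smaller margin in ITGAV, yet both lay below both B4-4 EDTA libraries. Leaving out B4-4 EDTA 1 ended the calls of ITGB6 (adjusted p = 0.0544) and ITGAV (adjusted p = 0.0758), and leaving out B4-4 EDTA 2 that of ITGAV (adjusted p = 0.0523).

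Called genes of cell to cell junctions were mostly lower in Addback EDTA as well. Calcium-dependent cadherins hold adherens junctions and desmosomes together, and claudins with MARVEL proteins seal tight junctions. Of 12 tested adherens junction and nectin genes, 6 fell (leave-out counts 3, 8, 2 and 2) and none rose, with a median log2 of −0.42. CDH1 (ENSG00000039068, chromosome 16, 68737225 to 68835548), E-cadherin, was 169.9 and 269 CPM in Addback EDTA against 443 and 469 CPM in B4-4 EDTA (log2 −1.06, SE 0.16, adjusted p = 0.00149). CDH3, P-cadherin of basal cells, was 318 and 431 CPM in Addback EDTA against 815 and 851 CPM in B4-4 EDTA (log2 −1.15, SE 0.14, adjusted p = 0.000319). Both cadherins were also lower in Addback than in B4-4 with NA (log2 −0.69 for CDH1, adjusted p = 0.0105, and −0.83 for CDH3, adjusted p = 0.00172), and the test of the difference between EDTA and NA was passed by neither (adjusted p = 0.331 and 0.344). CTNND1, p120 catenin, fell from 419 and 408 CPM in B4-4 EDTA to 292 and 319 CPM in Addback EDTA (log2 −0.43, SE 0.09, adjusted p = 0.00797). PVR, a nectin-like adhesion receptor, fell from 123 and 127 to 66.3 and 91.5 CPM (log2 −0.67, SE 0.14, adjusted p = 0.0088), and both calls ended without Addback EDTA 1, B4-4 EDTA 1 or B4-4 EDTA 2. NECTIN4 (ENSG00000143217, chromosome 1, 161070995 to 161089599), a nectin, was 13.7 and 4.95 CPM in Addback EDTA against 8.12 and 6.28 CPM in B4-4 EDTA, and the 2 groups overlapped (log2 0.37, SE 0.36, adjusted p = 0.54).

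Of 13 tested tight junction genes, 1 rose (leave-out counts 2, 0, 0 and 1) and 5 fell (leave-out counts 3, 8, 3 and 3), with a median log2 of −0.34. MARVELD2, tricellulin, was 31.8 and 34.9 CPM in Addback EDTA against 51.0 and 49.5 CPM in B4-4 EDTA (log2 −0.59, SE 0.11, adjusted p = 0.00355). CGN, cingulin, was 0.936 and 3.70 CPM in Addback EDTA against 14.2 and 13.6 CPM in B4-4 EDTA (log2 −2.58, SE 0.46, adjusted p = 0.00542), and the Addback EDTA replicates differed nearly 4-fold while both stayed below B4-4 EDTA. CLDN12, a claudin, was 28.8 and 34.2 CPM in Addback EDTA against 52.6 and 52.7 CPM in B4-4 EDTA (log2 −0.74, SE 0.15, adjusted p = 0.00717). TJP1, the scaffold ZO-1, was 132 and 157 CPM in Addback EDTA against 205 and 191 CPM in B4-4 EDTA (log2 −0.46, SE 0.11, adjusted p = 0.0156). Without Addback EDTA 1 the adjusted p was 0.0639 for CLDN12 and 0.12 for TJP1, whose call also ended without either B4-4 EDTA library. Of 9 tested desmosome genes, 3 fell (leave-out counts 2, 5, 0 and 1) and none rose, with a median log2 of −0.30. DSG2, desmoglein 2, was 339 and 404 CPM in Addback EDTA against 550.3 and 534 CPM in B4-4 EDTA (log2 −0.54, SE 0.11, adjusted p = 0.00624). DSC2, desmocollin 2, was 65.3 and 106 CPM in Addback EDTA against 158 and 154 CPM in B4-4 EDTA (log2 −0.86, SE 0.19, adjusted p = 0.0119). PKP1, plakophilin 1, was near the detection floor, with 33 counts in B4-4 EDTA against 3 in Addback EDTA, a ratio of 10 (95% counting interval 3.14 to 51). All 3 desmosome calls ended without B4-4 EDTA 1.

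The actin cytoskeleton gave the lowest median of the lists described here. Serum response factor (SRF) with its actin-sensing partner MRTF drives many genes of actin, its crosslinkers and its motors by binding the CArG box. Of 20 tested actin and SRF target genes, 10 fell (leave-out counts 9, 12, 8 and 7) and none rose, with a median log2 of −0.72. All 20 had both Addback EDTA libraries below both B4-4 EDTA libraries, where 60.0% of all tested genes had no overlap in one direction or the other. MYH9 (ENSG00000100345, chromosome 22, 36281277 to 36388067), the heavy chain of non-muscle myosin IIA, was 1050.0 and 1400.4 CPM in Addback EDTA against 2221 and 2248 CPM in B4-4 EDTA (log2 −0.87, SE 0.12, adjusted p = 0.000779). VCL (ENSG00000035403, chromosome 10, 73995193 to 74121363), vinculin, which couples integrins and cadherins to actin, was 252 and 323 CPM in Addback EDTA against 488 and 483 CPM in B4-4 EDTA (log2 −0.76, SE 0.12, adjusted p = 0.00187). The tropomyosins TPM1, at 31.6 and 37.6 CPM in Addback EDTA against 89.9 and 88.0 CPM in B4-4 EDTA (log2 −1.36, SE 0.19, adjusted p = 0.000968), and TPM4, at 386 and 531 CPM in Addback EDTA against 1227 and 1197 CPM in B4-4 EDTA (log2 −1.40, SE 0.21, adjusted p = 0.00221), fell as well. The other 6 called genes were CALD1, ACTN4, FLNA, CNN2, FHL2 and ACTN1, with log2 fold changes from −0.80 to −0.62.

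In 15 of the 20 genes the B4-4 EDTA libraries were the highest of all 12, against 11.7% of all tested genes. Against Vector EDTA, 8 of the 20 were called higher in Addback EDTA and 1 lower, with a median log2 of 0.45. The summed level of the list was 16633 to 19474 CPM in Addback EDTA and 10047 to 10578 CPM in Vector EDTA. Among single genes, Addback EDTA was above Vector EDTA in MYH9 (Vector EDTA 819 and 869 CPM). It was close to Vector EDTA in VCL (262 and 258 CPM) and TPM1 (38.1 and 35.5 CPM). The number called lower in Addback EDTA than in B4-4 EDTA ranged from 7 to 13 over the fits that each left out 1 of the 12 libraries. With NA the direction was different. There 5 of the 20 were higher in Addback than in B4-4 and 2 were lower, against 23.6% of all genes called in NA, and the median was 0.28. The difference between the EDTA and NA comparisons was itself called for 12 of the 20, all towards lower values with EDTA, against 8.78% of all genes. It was −1.57 for VCL (adjusted p = 0.000332), −1.44 for MYH9 (adjusted p = 0.000554) and −1.92 for TPM4 (adjusted p = 0.00449).

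The list was drawn up from actin genes and targets of SRF. The promoters of its genes were searched for the CArG box on both strands. The RefSeq windows (GRCh38.p14) ran from 250 bases before to 50 bases after each start site. The box was found in 5 of the 10 called list members that had a window and in 2 of the 7 others with one, against 454 of 35116 windows in all (1.29%) and 180 of 11224 tested genes with a window (1.6%). Over all genes with a window it was found in 45 of 1687 called in either direction (2.67%). Those called lower in Addback EDTA were close to this, with 27 of 929 (2.91%). The 5 called members follow, so that the boxes can be read in context, each as 120 bases, 5′ to 3′ on the strand given, with the box in capitals. A match is a description of the letters and not evidence of binding in these cells. SRF targets were put in the list on purpose, so its higher share of boxes is partly built in. The list was chosen with earlier results of these data known. Regulation of these genes by SRF in these cells was not tested.
ACTN1, chr14:68977673-68977792, minus strand: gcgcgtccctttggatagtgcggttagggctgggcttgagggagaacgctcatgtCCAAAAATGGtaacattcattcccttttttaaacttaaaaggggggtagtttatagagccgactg
CNN2, chr19:1026464-1026583, plus strand: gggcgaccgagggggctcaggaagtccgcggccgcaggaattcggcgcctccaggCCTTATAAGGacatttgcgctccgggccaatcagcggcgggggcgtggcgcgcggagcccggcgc
FHL2, chr2:105399046-105399165, minus strand: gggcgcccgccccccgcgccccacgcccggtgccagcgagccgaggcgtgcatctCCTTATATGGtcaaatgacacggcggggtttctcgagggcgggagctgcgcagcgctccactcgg
FLNA, chrX:154374664-154374783, minus strand: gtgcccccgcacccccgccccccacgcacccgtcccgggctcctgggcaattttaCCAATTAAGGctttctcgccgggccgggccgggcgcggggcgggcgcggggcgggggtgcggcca
TPM4, chr19:16067310-16067429, plus strand: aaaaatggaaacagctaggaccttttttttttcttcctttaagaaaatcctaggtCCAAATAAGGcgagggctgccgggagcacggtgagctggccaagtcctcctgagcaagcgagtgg
The first base of the box lay 171 bases before the start site in ACTN1, 89 in CNN2, 59 in FHL2 (a second FHL2 window, not shown, holds a box 101 bases before another start site), 94 in FLNA and 173 in TPM4. The levels of these genes were 663 and 809 CPM in Addback EDTA against 1124 and 1139 CPM in B4-4 EDTA for ACTN1, an actin crosslinker of focal adhesions (log2 −0.62, SE 0.17, adjusted p = 0.0371). CNN2, calponin 2, was 249.9 and 249 CPM in Addback EDTA against 421 and 430.0 CPM in B4-4 EDTA (log2 −0.77, SE 0.16, adjusted p = 0.00712). FHL2, a LIM protein of focal adhesions, was 54.1 and 37.4 CPM in Addback EDTA against 71.2 and 72.9 CPM in B4-4 EDTA (log2 −0.65, SE 0.16, adjusted p = 0.0211). FLNA, filamin A, was 1811 and 2413 CPM in Addback EDTA against 3499.9 and 3479 CPM in B4-4 EDTA (log2 −0.72, SE 0.13, adjusted p = 0.00386). All 4, and TPM4 above, had B4-4 EDTA above Addback EDTA, by 1.54-fold for ACTN1, the smallest of the 5, and 2.64-fold for TPM4, the largest. The calls of ACTN1, CNN2 and FHL2 ended without B4-4 EDTA 2 (adjusted p = 0.15, 0.0523 and 0.128), and those of ACTN1 and FHL2 also without B4-4 EDTA 1 (adjusted p = 0.148 and 0.117).

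Tissue factor and the plasminogen activators act at the cell surface in clotting and proteolysis. Of 13 tested genes, 5 fell (leave-out counts 2, 4, 2 and 1) and none rose, with a median log2 of −0.42. F3 (ENSG00000117525, chromosome 1, 94529225 to 94541800), tissue factor, was 56.1 and 114 CPM in Addback EDTA against 511 and 519 CPM in B4-4 EDTA (log2 −2.60, SE 0.29, adjusted p = 0.000777). It was 6.05-fold lower in Addback EDTA than in B4-4 EDTA, and both B4-4 EDTA libraries lay far above the 10 others. PLAU, urokinase, was 160.0 and 85.0 CPM in Addback EDTA against 332 and 354 CPM in B4-4 EDTA (log2 −1.49, SE 0.33, adjusted p = 0.0238), and its receptor PLAUR was 34.1 and 52.9 CPM in Addback EDTA against 69.9 and 83.2 CPM in B4-4 EDTA (log2 −0.81, SE 0.18, adjusted p = 0.0134). THBD, thrombomodulin, an anticoagulant receptor, was 16.6 and 15.2 CPM in Addback EDTA against 68.0 and 71.6 CPM in B4-4 EDTA (log2 −2.13, SE 0.42, adjusted p = 0.0135). The calls of PLAU, PLAUR and THBD each ended without at least 1 of the 4 compared libraries. Of 18 tested YAP and TAZ target genes, a set that reports on the Hippo pathway, 1 rose and 4 fell (leave-out counts 3, 8, 2 and 3), with a median log2 of −0.20. The 2 best known of them were not called, CCN1 at 43.6 and 19.4 CPM in Addback EDTA against 64.9 and 74.3 CPM in B4-4 EDTA (adjusted p = 0.167) and CCN2 at 24.6 and 21.9 CPM in Addback EDTA against 24.1 and 26.5 CPM in B4-4 EDTA (adjusted p = 0.729).

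Secreted factors of the TGF-beta family differed in both directions. Activins and BMPs are dimeric ligands of this family, and follistatin traps activin. Of 18 tested genes of activin, BMP and TGF-beta signalling, 1 rose and 8 fell (leave-out counts 7, 8, 4 and 4), with a median log2 of −0.42. INHBA (ENSG00000122641, chromosome 7, 41667168 to 41705834), the subunit of activin A, was 1.34 and 4.32 CPM in Addback EDTA against 23.3 and 22.8 CPM in B4-4 EDTA (log2 −3.02, SE 0.49, adjusted p = 0.00395). BMP2 was 1.75 and 1.59 CPM in Addback EDTA against 7.29 and 5.91 CPM in B4-4 EDTA (log2 −1.98, SE 0.31, adjusted p = 0.00154). TGFBI, a matrix protein induced by TGF-beta, was 1093 and 1635 CPM in Addback EDTA against 2584 and 2638 CPM in B4-4 EDTA (log2 −0.94, SE 0.18, adjusted p = 0.00596). The gene that rose was the ligand TGFB2, at 2.34 and 5.74 CPM in Addback EDTA against 0.414 and 0.479 CPM in B4-4 EDTA (log2 3.16, SE 0.48, adjusted p = 0.00116), which was 3.69 and 4.01 CPM in Addback NA and no higher than 0.632 CPM in the B4-4 and Vector libraries. FST, follistatin, mentioned after its values were seen, was 0.877 and 7.56 CPM in Addback EDTA against 107 and 112 CPM in B4-4 EDTA (log2 −4.68, SE 0.86, adjusted p = 0.0148), and the Addback EDTA replicates differed by more than 5-fold. Leaving out B4-4 EDTA replicate 1 or 2 ended its call (adjusted p = 0.0777 and 0.0759).

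Matrix genes split into a group higher in Addback and a group lower. Of 19 tested matrix and mesenchymal genes, 3 rose (leave-out counts 4, 3, 3 and 3) and 4 fell (leave-out counts 2, 5, 2 and 2), with a median log2 of −0.04. DCN (ENSG00000011465, chromosome 12, 91140484 to 91183123), decorin, a proteoglycan that coats collagen, was 17.4 and 51.9 CPM in Addback EDTA against 1.81 and 2.08 CPM in B4-4 EDTA (log2 4.15, SE 0.49, adjusted p = 0.000798), and 10.6 and 8.38 CPM in Vector EDTA. COL6A2, a chain of type VI collagen, was 7.25 and 8.19 CPM in Addback EDTA against 0.465 and 0.639 CPM in B4-4 EDTA (log2 3.79, SE 0.27, adjusted p = 5.00e-06), and 0.602 and 0.399 CPM in Vector EDTA. TNC (ENSG00000041982, chromosome 9, 115019578 to 115118257), tenascin C, a matrix protein of wounds and tumours, was 12.7 and 23.9 CPM in Addback EDTA against 129 and 139 CPM in B4-4 EDTA (log2 −2.87, SE 0.22, adjusted p = 1.88e-05). THBS1, thrombospondin 1, was 342 and 379.9 CPM in Addback EDTA against 841 and 875 CPM in B4-4 EDTA (log2 −1.25, SE 0.17, adjusted p = 0.0006). DCN and COL6A2 were high in all 4 Addback libraries, with 19.0 and 19.3 and 32.6 and 29.6 CPM in Addback NA, whereas TNC was high in B4-4 EDTA alone, with at most 23.9 CPM elsewhere. Of 14 tested genes linked to epithelial to mesenchymal transition, 2 rose (leave-out counts 3, 2, 1 and 1) and 4 fell (leave-out counts 4, 4, 4 and 4), with a median log2 of −0.06. S100A4, a calcium-binding protein of motile cells, was 109.7 and 55.6 CPM in Addback EDTA against 11.9 and 13.5 CPM in B4-4 EDTA (log2 2.70, SE 0.33, adjusted p = 0.00116), and MMP14 and MMP2, a membrane protease and the gelatinase it activates, were 153 and 201 CPM in Addback EDTA against 352 and 373 CPM in B4-4 EDTA (log2 −1.03, SE 0.17, adjusted p = 0.00197) and 4.62 and 2.84 CPM in Addback EDTA against 12.4 and 12.1 CPM in B4-4 EDTA (log2 −1.72, SE 0.32, adjusted p = 0.00441).

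In the EGF receptor family 3 ligand genes were called lower in Addback EDTA. Of 12 tested receptor and ligand genes, 2 rose (leave-out counts 2, 1, 1 and 1) and 3 fell (leave-out counts 2, 3, 2 and 2), with a median log2 of −0.23. The 3 that fell were all ligands. TGFA was 42.9 and 53.7 CPM in Addback EDTA against 135 and 136 CPM in B4-4 EDTA (log2 −1.49, SE 0.19, adjusted p = 0.000597). NRG1, neuregulin 1, was 5.67 and 6.99 CPM in Addback EDTA against 16.9 and 18.3 CPM in B4-4 EDTA (log2 −1.47, SE 0.18, adjusted p = 0.000296). AREG, amphiregulin, was 125 and 150.4 CPM in Addback EDTA against 479 and 492 CPM in B4-4 EDTA (log2 −1.82, SE 0.35, adjusted p = 0.0141). The AREG call ended without Addback EDTA 1 (adjusted p = 0.104), B4-4 EDTA 1 (adjusted p = 0.0867) or B4-4 EDTA 2 (adjusted p = 0.0882). LRIG1, which restrains EGF receptors, was 22.04 and 20.5 CPM in Addback EDTA against 9.93 and 10.8 CPM in B4-4 EDTA (log2 1.04, SE 0.18, adjusted p = 0.00338). The other gene that rose, named after its values were seen, was the receptor ERBB3, at 16.8 and 25.4 CPM in Addback EDTA against 13.96 and 14.5 CPM in B4-4 EDTA (log2 0.57, SE 0.18, adjusted p = 0.0498), and its call ended without Addback EDTA 2 or either B4-4 EDTA library. The receptor EGFR itself was 588 and 561 CPM in Addback EDTA against 532 and 531 CPM in B4-4 EDTA and was not called (adjusted p = 0.731). Of 16 tested ERK feedback and ETS factor genes, 1 rose (leave-out counts 0, 1, 0 and 0) and 3 fell (leave-out counts 2, 2, 2 and 2). ETS1, a transcription factor mentioned after its values were seen, was 66.0 and 58.6 CPM in Addback EDTA against 148 and 143 CPM in B4-4 EDTA (log2 −1.23, SE 0.10, adjusted p = 1.37e-05).

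Among genes higher in Addback EDTA, targets of the aryl hydrocarbon receptor, a sensor of aromatic compounds that induces detoxifying enzymes, had the highest median of the pathway lists. Of 9 tested, 5 rose (leave-out counts 5, 5, 3 and 3) and none fell, with a median log2 of 0.61. CYP1B1 (ENSG00000138061, chromosome 2, 38066973 to 38109902), which oxidises xenobiotics and oestrogens, was 141 and 68.5 CPM in Addback EDTA against 6.52 and 5.64 CPM in B4-4 EDTA (log2 4.11, SE 0.34, adjusted p = 0.000175). TIPARP, a feedback repressor of the receptor, was 109.8 and 78.0 CPM in Addback EDTA against 37.1 and 35.9 CPM in B4-4 EDTA (log2 1.36, SE 0.19, adjusted p = 0.000957). ALDH3A1, an aldehyde dehydrogenase, was 129 and 49.8 CPM in Addback EDTA against 15.2 and 16.4 CPM in B4-4 EDTA (log2 2.5, SE 0.46, adjusted p = 0.0116), and its call was lost on leaving out B4-4 EDTA 1 (adjusted p = 0.119) or B4-4 EDTA 2 (adjusted p = 0.103). For CYP1B1 and TIPARP, Addback EDTA lay between B4-4 EDTA and Vector EDTA, with 641 and 469.5 CPM of CYP1B1 and 325 and 282 CPM of TIPARP in Vector EDTA. CYP1A1, mentioned after its values were seen, was 46.7 and 9.61 CPM in Addback EDTA against 1.09 and 1.01 CPM in B4-4 EDTA (log2 4.73, SE 0.86, adjusted p = 0.0145) with 125 and 135 CPM in Vector EDTA, and leaving out B4-4 EDTA replicate 1 or 2 ended its call (adjusted p = 0.124 and 0.116). The other gene that rose was NQO1, which is also counted among the NRF2 genes below. CYP1B1 has an antisense partner whose reads cannot be told from its own where strand was not used in counting.

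All called antioxidant genes driven by NRF2 were higher in Addback EDTA. Of 22 tested, 9 rose and none fell (40.9% called against 14.1% of all tested genes, median log2 0.38). AKR1C2 (ENSG00000151632, chromosome 10, 4987400 to 5018031), an aldo-keto reductase, was 213 and 256 CPM in Addback EDTA against 75.4 and 77.8 CPM in B4-4 EDTA (log2 1.61, SE 0.15, adjusted p = 3.18e-05). Its close relative AKR1C1 was 197 and 158 CPM in Addback EDTA against 91.7 and 99.0 CPM in B4-4 EDTA (log2 0.89, SE 0.12, adjusted p = 0.000478), and because these paralogs are nearly identical the split of reads between them is uncertain. PGD, of the pentose phosphate pathway, was 326 and 355 CPM in Addback EDTA against 206 and 219 CPM in B4-4 EDTA (log2 0.68, SE 0.09, adjusted p = 0.000373). NQO1, a quinone reductase, was 419 and 422 CPM in Addback EDTA against 268 and 282 CPM in B4-4 EDTA (log2 0.61, SE 0.08, adjusted p = 0.00057). In all 4 both Addback EDTA libraries also lay above both Vector EDTA libraries, where AKR1C2 was 71.7 and 72.8 CPM and NQO1 189 and 203 CPM. Of the 22, between 5 and 8 rose when 1 of the 4 compared libraries was left out.

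Ferritin genes were higher as well. Of 13 tested genes of iron uptake, storage and export, 4 rose (leave-out counts 2, 2, 1 and 1) and 2 fell (leave-out counts 0, 1, 0 and 1), with a median log2 of 0.00. FTH1, the heavy chain of ferritin, was 1168 and 1019.7 CPM in Addback EDTA against 692 and 718 CPM in B4-4 EDTA (log2 0.63, SE 0.10, adjusted p = 0.00169). FTL, the light chain, was 499 and 508 CPM in Addback EDTA against 288 and 298 CPM in B4-4 EDTA (log2 0.78, SE 0.16, adjusted p = 0.00882). NCOA4, which delivers ferritin for breakdown, was 286 and 298 CPM in Addback EDTA against 246 and 226 CPM in B4-4 EDTA (log2 0.31, SE 0.09, adjusted p = 0.0363), a call lost without any 1 of the 4 libraries, and the FTL call ended without B4-4 EDTA 1 (adjusted p = 0.096) or B4-4 EDTA 2 (adjusted p = 0.0737). STEAP4, a metalloreductase, had 34 counts in B4-4 EDTA against 4 in Addback EDTA, a ratio of 7.74 (95% counting interval 2.76 to 30). Its call ended without Addback EDTA 1 (adjusted p = 0.145) or B4-4 EDTA 1 (adjusted p = 0.204), and with limma voom. The ferritin genes have processed copies that may share reads. PROM2 (ENSG00000155066, chromosome 2, 95274453 to 95291308), prominin 2, a protein of membrane protrusions linked to ferritin export, was 4.56 and 4.21 CPM in Addback EDTA against 5.64 and 5.75 CPM in B4-4 EDTA, was not called (log2 −0.38, SE 0.16, adjusted p = 0.148) and was 4.73 and 4.48 CPM in Vector EDTA.

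Of 16 tested regulators of ferroptosis, death by lipid peroxidation, 3 rose (leave-out counts 3, 3, 1 and 1) and none fell, with a median log2 of 0.10. The 18.8% called were near the 14.1% of all tested genes. The first 2 act on opposite sides. GPX4, which removes lipid peroxides, was 133 and 172 CPM in Addback EDTA against 81.5 and 82.9 CPM in B4-4 EDTA (log2 0.89, SE 0.18, adjusted p = 0.0085). ACSL4, which loads the polyunsaturated lipids that peroxidise, was 463 and 438 CPM in Addback EDTA against 288 and 271 CPM in B4-4 EDTA (log2 0.69, SE 0.16, adjusted p = 0.013). Both were mentioned after their values were seen. The other was SCD, given with lipid synthesis below. The GPX4 call ended without B4-4 EDTA 1 (adjusted p = 0.0697) or B4-4 EDTA 2 (adjusted p = 0.06), and the ACSL4 call without these (adjusted p = 0.0781 and 0.11) or Addback EDTA 1 (adjusted p = 0.0712). SLC7A11, the cystine transporter that feeds glutathione synthesis, was 64.3 and 62.0 CPM in Addback EDTA against 57.1 and 57.5 CPM in B4-4 EDTA and was not called (adjusted p = 0.609). In each of GPX4 and ACSL4 the Addback EDTA levels were near those of Vector EDTA (144 and 163 and 490.3 and 383 CPM).

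Several lipid synthesis genes rose in Addback EDTA. Of 18 tested genes of fatty acid and glycerolipid synthesis, 6 rose (leave-out counts 8, 4, 4 and 4), 2 fell (leave-out counts 0, 4, 0 and 0) and 10 were not called, with a median log2 of 0.28. SCD (ENSG00000099194, chromosome 10, 100347124 to 100364834), the desaturase that makes monounsaturated fatty acids, was 1358 and 2292 CPM in Addback EDTA against 759 and 772 CPM in B4-4 EDTA (log2 1.25, SE 0.20, adjusted p = 0.00295). FASN, fatty acid synthase, was 1659 and 2190.2 CPM in Addback EDTA against 972 and 1013 CPM in B4-4 EDTA (log2 0.95, SE 0.14, adjusted p = 0.00102). LPIN1, a phosphatidate phosphatase, was 157 and 199 CPM in Addback EDTA against 68.1 and 64.0 CPM in B4-4 EDTA (log2 1.43, SE 0.17, adjusted p = 0.000206). ACSL1, an acyl-CoA synthetase, was 187 and 261 CPM in Addback EDTA against 102 and 105 CPM in B4-4 EDTA (log2 1.11, SE 0.13, adjusted p = 0.000251). All 4 had both Addback libraries above both B4-4 libraries, and Addback EDTA 2 was the higher of the pair in each. The 2 that fell, named for completeness after their values were seen, were GPAM (log2 −0.48) and FADS3 (log2 −0.61), and both calls ended without Addback EDTA 1 or either B4-4 EDTA library.

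Of 20 tested cholesterol synthesis and uptake genes, 7 rose and none fell (35% called against 14.1% of all tested genes, median log2 0.35). FDPS, farnesyl diphosphate synthase, was 329.9 and 552 CPM in Addback EDTA against 186 and 190.3 CPM in B4-4 EDTA (log2 1.23, SE 0.18, adjusted p = 0.00115). FDFT1, squalene synthase, was 483 and 565 CPM in Addback EDTA against 344 and 355 CPM in B4-4 EDTA (log2 0.58, SE 0.10, adjusted p = 0.00258). DHCR7, of the last step of the pathway, was 228 and 297 CPM in Addback EDTA against 161 and 171 CPM in B4-4 EDTA (log2 0.66, SE 0.12, adjusted p = 0.0037). SREBF2, the transcription factor of the pathway, was 369 and 381 CPM in Addback EDTA against 277 and 285 CPM in B4-4 EDTA (log2 0.41, SE 0.08, adjusted p = 0.00659), and its call was lost on leaving out B4-4 EDTA 1 (adjusted p = 0.0828) or B4-4 EDTA 2 (adjusted p = 0.056). The number that rose was 9 without Addback EDTA 1, 4 without Addback EDTA 2 and 3 without either B4-4 EDTA library.

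Ribosomal protein genes gave small changes in 1 direction. All 29 tested had a positive log2 fold change, with a median of 0.41 against 0.01 over all tested genes. Of them 22 were called (75.9%), against 14.1% of all tested genes. RPS6 (ENSG00000137154, chromosome 9, 19375715 to 19380254) was 3829.8 and 3408 CPM in Addback EDTA against 2395 and 2337 CPM in B4-4 EDTA (log2 0.61, SE 0.09, adjusted p = 0.00102). RPL19 was 1437 and 1351 CPM in Addback EDTA against 988 and 977 CPM in B4-4 EDTA (log2 0.50, SE 0.09, adjusted p = 0.00415). RPS18 was 1365 and 1209 CPM in Addback EDTA against 934 and 879 CPM in B4-4 EDTA (log2 0.51, SE 0.11, adjusted p = 0.00874). RPL32 was 882 and 816 CPM in Addback EDTA against 645 and 601 CPM in B4-4 EDTA (log2 0.45, SE 0.10, adjusted p = 0.012). The B4-4 EDTA libraries were outside the range of the 10 others in 28 of the 29 genes, against 22.5% of all tested genes. The summed level was 28786 to 28899 CPM in B4-4 EDTA against 35728 to 41334 CPM in Addback EDTA and 43888 to 47373 CPM in Vector EDTA. The calls rested on few libraries. They numbered 2 without Addback EDTA 1, 26 without Addback EDTA 2, 2 without B4-4 EDTA 1 and 1 without B4-4 EDTA 2. Processed copies of ribosomal protein genes may share reads. Respiratory chain and ATP synthase genes were also all positive, 23 of 23, with a median of 0.28 and 7 called (30.4%, leave-out counts 1, 6, 0 and 1).

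Growth control genes gave a mixed picture. Of 18 tested p53 targets, 2 rose (leave-out counts 1, 3, 1 and 1) and 4 fell (leave-out counts 7, 3, 1 and 1), with a median log2 of −0.26. BTG2, an antiproliferative gene, was 127 and 93.4 CPM in Addback EDTA against 41.8 and 40.1 CPM in B4-4 EDTA (log2 1.43, SE 0.14, adjusted p = 5.03e-05), while CDKN1A, the cyclin-dependent kinase inhibitor p21, was 235 and 183 CPM in Addback EDTA against 327 and 349 CPM in B4-4 EDTA (log2 −0.69, SE 0.17, adjusted p = 0.0187). FAS, a death receptor, was 45.7 and 44.9 CPM in Addback EDTA against 76.2 and 70.7 CPM in B4-4 EDTA (log2 −0.70, SE 0.13, adjusted p = 0.00397). SFN, the 14-3-3 sigma protein, was 811 and 739 CPM in Addback EDTA against 1075 and 1155 CPM in B4-4 EDTA (log2 −0.52, SE 0.10, adjusted p = 0.00551). The CDKN1A call ended without Addback EDTA 2, B4-4 EDTA 1 or B4-4 EDTA 2, the FAS call without B4-4 EDTA 1 and the SFN call without B4-4 EDTA 2. Of 22 tested G1/S and replication genes 4 rose (leave-out counts 2, 1, 1 and 1) and 1 fell, with a median log2 of 0.14. Of 22 tested G2/M genes 3 fell (leave-out counts 2, 5, 2 and 1) and none rose, which is 13.6% against 14.1% of all tested genes. Of 20 tested unfolded protein response genes 6 fell (leave-out counts 2, 5, 1 and 1) and none rose. The log2 fold changes of the 6 were small, from −0.55 to −0.33.

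The share called was 29.4% among keratins and 17.6% among cornified envelope genes, against 14.1% of all tested genes. Of 17 tested keratins 5 fell (leave-out counts 6, 7, 5 and 5) and none rose, with a median log2 of −0.33, namely KRT6A, KRT6B, KRT6C and KRT75, named after their values were seen, and KRT17. KRT17, a keratin of basal and wounded epithelium, was 1417 and 1952 CPM in Addback EDTA against 2851 and 2984 CPM in B4-4 EDTA (log2 −0.79, SE 0.15, adjusted p = 0.00628). Keratin paralogs may share reads. Of 17 tested cornified envelope genes, 3 fell (leave-out counts 2, 5, 2 and 2), with a median log2 of −0.05. Of 13 tested S100 genes 3 rose (leave-out counts 3, 5, 1 and 1), with a median log2 of 0.39. Kallikrein protease genes were not called by edgeR in any of the 8 tested, with 2 at an unadjusted p under 0.05, 0 called by DESeq2 and 0 by limma voom. The 19 tested immediate early genes were not called by edgeR either, with 1 at an unadjusted p under 0.05, 0 called by DESeq2 and 2 by limma voom, and the 22 proteasome genes likewise, with 4 at an unadjusted p under 0.05, 1 called by DESeq2 and 2 by limma voom.

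**Figure D3:**
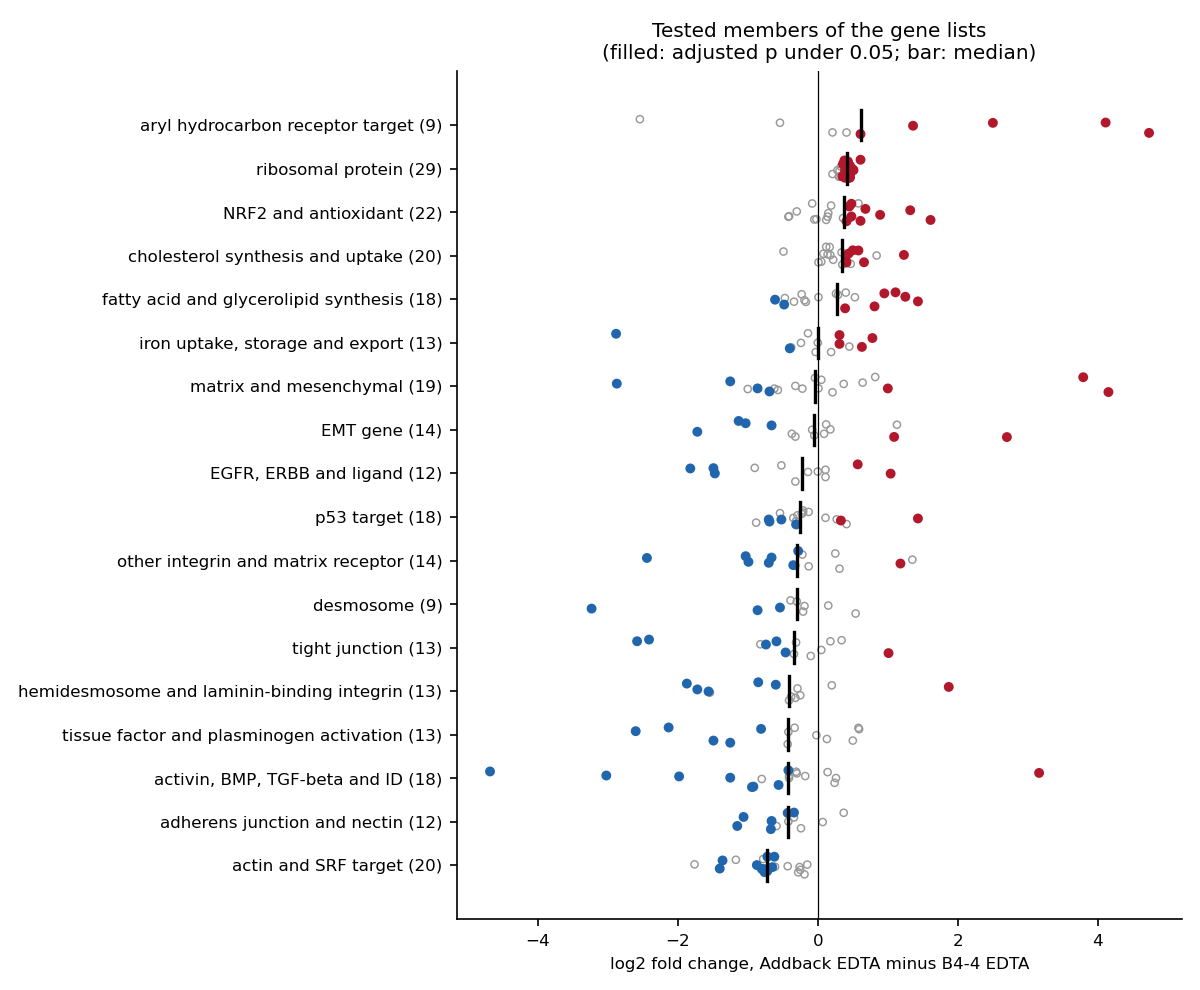
Each row is a gene list, cell type marker lists left out, with at least 1 in 3 of its tested members called, with the number tested in parentheses, and each point is a member at its log2 fold change, Addback EDTA minus B4-4 EDTA. Filled points were called, bars are list medians, and the medians run from −0.72 for actin and SRF targets to 0.61 for aryl hydrocarbon receptor targets.

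The genes with the largest changes that kept their call without each of the 4 compared libraries were next examined. Among the 15 largest rises, RIPOR2 had 209 and 611 counts in the Addback EDTA libraries and 1 and 3 in B4-4 EDTA, a ratio of 225 (95% counting interval 87.6 to 829). SRGN (ENSG00000122862, chromosome 10, 69088106 to 69104811), serglycin, a proteoglycan of secretory granules, was 29.2 and 26.1 CPM in Addback EDTA against 1.14 and 0.852 CPM in B4-4 EDTA (log2 4.79, SE 0.21, adjusted p = 3.31e-07). PDE3B, a cyclic nucleotide phosphodiesterase, was 9.71 and 9.67 CPM in Addback EDTA against 0.259 and 0.746 CPM in B4-4 EDTA (log2 4.26, SE 0.40, adjusted p = 3.95e-05). In SRGN and PDE3B the Addback replicates were close to each other, and all 4 Addback libraries stood above the 8 others, with 28.6 and 25.8 CPM of SRGN and 10.2 and 9.37 CPM of PDE3B in Addback NA. CADM3, a cell adhesion molecule best known in neurons, was 9.24 and 30.1 CPM in Addback EDTA against 0.259 and 0.266 CPM in B4-4 EDTA (log2 6.19, SE 0.71, adjusted p = 0.000708). CPLX1, complexin 1 of synaptic vesicle release, was 14.2 and 10.8 CPM in Addback EDTA against 1.29 and 0.533 CPM in B4-4 EDTA (log2 3.76, SE 0.41, adjusted p = 0.000147). These 2 were likewise highest in the Addback libraries of either treatment.

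In 5 other rises B4-4 EDTA held low levels, without all 4 Addback libraries above the 8 others. IRF1 (ENSG00000125347, chromosome 5, 132481609 to 132490798), an interferon regulatory transcription factor, was 68.5 and 63.7 CPM in Addback EDTA against 13.2 and 11.4 CPM in B4-4 EDTA (log2 2.42, SE 0.15, adjusted p = 1.95e-06), with 41.0 and 44.8 CPM in Vector EDTA and 74.3 and 77.9 CPM in B4-4 NA. TSC22D3, a glucocorticoid-induced regulator, was 92.2 and 44.01 CPM in Addback EDTA against 13.5 and 15.7 CPM in B4-4 EDTA (log2 2.22, SE 0.30, adjusted p = 0.00194), with 167 and 181 CPM in Vector EDTA. ENTPD2, an ectonucleotidase, was 119.7 and 86.6 CPM in Addback EDTA against 19.5 and 17.7 CPM in B4-4 EDTA (log2 2.47, SE 0.31, adjusted p = 0.00132). EPHB6, a kinase-dead ephrin receptor, was 9.06 and 9.50 CPM in Addback EDTA against 1.91 and 1.01 CPM in B4-4 EDTA (log2 2.66, SE 0.27, adjusted p = 6.87e-05). ABCA6, a lipid transporter, was 12.98 and 9.04 CPM in Addback EDTA against 1.76 and 1.44 CPM in B4-4 EDTA (log2 2.78, SE 0.25, adjusted p = 2.97e-05). In these 5 genes the B4-4 EDTA libraries were the lowest of all 12. GGT5, a glutamyl transferase acting on glutathione, was 10.4 and 15.1 CPM in Addback EDTA against 1.76 and 2.24 CPM in B4-4 EDTA (log2 2.67, SE 0.28, adjusted p = 8.34e-05). RTN1, a reticulon, was 6.02 and 10.7 CPM in Addback EDTA against 1.81 and 1.76 CPM in B4-4 EDTA (log2 2.22, SE 0.28, adjusted p = 0.0003). In GGT5 and RTN1 all 4 Addback libraries were above the 8 others, and in GGT5 the B4-4 EDTA libraries were also the lowest of all 12. DCN, CYP1B1 and S100A4, given above, completed the 15.

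Falls likewise went with low levels in Addback or with high levels in B4-4 EDTA. NIPAL4 (ENSG00000172548, chromosome 5, 157460019 to 157474717), a magnesium transporter of the epidermis, was 0.234 and 0.341 CPM in Addback EDTA against 14.2 and 13.3 CPM in B4-4 EDTA (log2 −5.55, SE 0.33, adjusted p = 1.95e-06). KCNK6 (ENSG00000099337, chromosome 19, 38319844 to 38332076), a potassium channel, was 0.702 and 0.569 CPM in Addback EDTA against 18.6 and 17.0 CPM in B4-4 EDTA (log2 −4.80, SE 0.23, adjusted p = 4.47e-07). STAP2, a signalling adaptor, was 0.760 and 0.967 CPM in Addback EDTA against 15.8 and 16.2 CPM in B4-4 EDTA (log2 −4.20, SE 0.31, adjusted p = 6.54e-06). All 4 Addback libraries were the lowest of the 12 for these genes, with 0.559 and 0.596 CPM of KCNK6 and 1.12 and 1.57 CPM of STAP2 in Addback NA against 12.3 and 12.3 and 16.7 and 15.4 CPM in Vector NA. GRIP1, a PDZ scaffold, was 0.819 and 1.14 CPM in Addback EDTA against 12.05 and 11.1 CPM in B4-4 EDTA (log2 −3.56, SE 0.29, adjusted p = 1.69e-05). NUDT12, a hydrolase of NADH and related nucleotides, was 0.585 and 1.36 CPM in Addback EDTA against 10.1 and 9.74 CPM in B4-4 EDTA (log2 −3.33, SE 0.33, adjusted p = 5.63e-05). ATP8B1, a lipid flippase, was 0.819 and 1.36 CPM in Addback EDTA against 10.96 and 11.8 CPM in B4-4 EDTA (log2 −3.37, SE 0.27, adjusted p = 1.39e-05). They too were lowest in the Addback libraries of both treatments, as were CDYL2 and FLI1. CDYL2, a chromodomain protein, was 0.702 and 1.19 CPM in Addback EDTA against 9.98 and 11.3 CPM in B4-4 EDTA (log2 −3.47, SE 0.33, adjusted p = 5.03e-05). FLI1, an ETS transcription factor, was 1.403 and 3.01 CPM in Addback EDTA against 17.1 and 17.3 CPM in B4-4 EDTA (log2 −2.95, SE 0.35, adjusted p = 0.000275).

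The other pattern was a high level in B4-4 EDTA. SEMA7A (ENSG00000138623, chromosome 15, 74409289 to 74433958), a semaphorin that binds integrins, was 0.468 and 1.36 CPM in Addback EDTA against 16.3 and 17.5 CPM in B4-4 EDTA (log2 −4.19, SE 0.37, adjusted p = 2.83e-05), and no other library exceeded 4.92 CPM. LCP1, the actin bundler L-plastin, was 1.52 and 3.92 CPM in Addback EDTA against 25.5 and 25.3 CPM in B4-4 EDTA (log2 −3.22, SE 0.35, adjusted p = 0.000145). ZNF365, a zinc finger protein, was 1.05 and 1.08 CPM in Addback EDTA against 9.62 and 10.01 CPM in B4-4 EDTA (log2 −3.19, SE 0.27, adjusted p = 2.01e-05). SPOCD1, a germline chromatin factor, was 0.643 and 0.569 CPM in Addback EDTA against 10.9 and 9.27 CPM in B4-4 EDTA (log2 −4.04, SE 0.50, adjusted p = 0.000322). ADAMTS6, a matrix protease, was 1.403 and 1.31 CPM in Addback EDTA against 13.03 and 13.6 CPM in B4-4 EDTA (log2 −3.29, SE 0.33, adjusted p = 5.74e-05). In these genes B4-4 EDTA held the 2 highest values of the 12. INHBA and TNC, given above, belonged to the same group.

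Over all called genes the split was as follows, as a description, since the call itself required a difference between these groups. Both B4-4 EDTA libraries lay above the 10 others in 697 of the 1187 genes called lower (58.7%) and below them in 687 of the 1030 called higher (66.7%), against 11.7% and 10.8% of all tested genes. All 4 Addback libraries lay below the 8 others in 248 of those called lower (20.9%) and above them in 173 of those called higher (16.8%), against 3.12% and 2.75% of all tested genes. The 2 patterns can hold for the same gene, as in KCNK6 and SRGN.

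**Figure D4:**
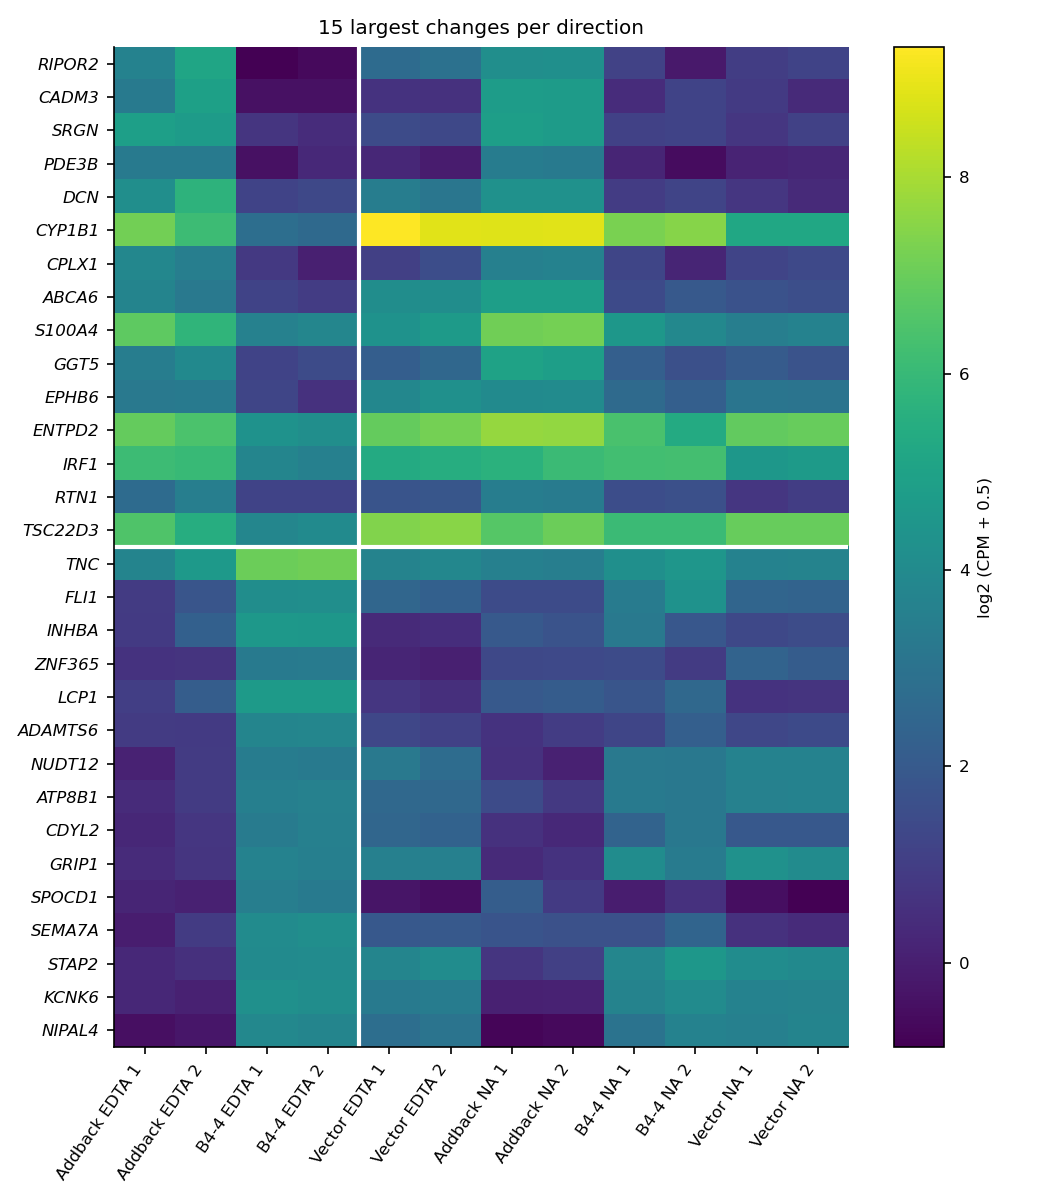
Rows are the 15 largest rises and the 15 largest falls that kept their call without each compared library, columns are the 12 libraries, and colour is log2 of CPM plus 0.5. White lines separate the 4 compared libraries and the rises from the falls, and SRGN, PDE3B, NIPAL4 and KCNK6 can be seen to follow the Addback label in both treatments, whereas IRF1, SEMA7A and LCP1 stand apart in B4-4 EDTA.

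The same 2 derivatives were compared in NA, which uses 4 other libraries, to see which differences differed between the treatments. The B4-4 NA replicates lay furthest apart of the 6 groups, with a biological coefficient of variation of 21.4%. They differed at least 2-fold in 281 of 9358 well expressed genes. B4-4 NA 1 correlated more closely with Vector NA 1 (0.9714) than with B4-4 NA 2 (0.9543). The NA comparison and the difference between treatments rest on this pair. In NA 3723 genes were called (23.6%). Of the 2217 called with EDTA, 756 were called in the same direction in NA, which is 34.1% of the EDTA calls and 20.3% of the NA calls, 130 were called in the opposite direction and 1331 were not called. The difference between the 2 comparisons was tested directly and was called for 1383 genes (8.78%), 664 towards higher (4.22%) and 719 towards lower (4.57%) values with EDTA. Across genes, which are not independent replicates, the log2 fold changes of the 2 comparisons had a Pearson correlation of 0.452.

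The 5 largest differences towards higher values with EDTA, among genes averaging 5 CPM or more, included genes of squamous differentiation and mucus. KLK7 (ENSG00000169035, chromosome 19, 50976482 to 50984099), a protease of the outer epidermis, was 3.27 and 14.96 CPM in Addback EDTA against 11.5 and 10.1 CPM in B4-4 EDTA (log2 −0.24, adjusted p = 0.838), but 0.0559 and 0.0542 CPM in Addback NA and 15.3 and 35.6 CPM in B4-4 NA. The difference between the comparisons was 8.44 (SE 1.52, adjusted p = 0.0178). MUC16, a transmembrane mucin, was 5.91 and 33.3 CPM in Addback EDTA against 12.7 and 10.8 CPM in B4-4 EDTA, and 0.168 and 0.0542 CPM in Addback NA against 28.9 and 12.3 CPM in B4-4 NA (difference 8.20, SE 1.58, adjusted p = 0.0234). S100P was 4.85 and 17.3 CPM in Addback EDTA against 3.88 and 3.78 CPM in B4-4 EDTA and 0.168 and 0.379 against 10.5 and 11.05 CPM in NA (difference 6.79, SE 0.81, adjusted p = 0.00117). In these 3 genes and in AZGP1, a secreted zinc glycoprotein at 1.93 and 8.07 CPM in Addback EDTA against 9.88 and 9.85 CPM in B4-4 EDTA, Addback EDTA 2 was more than 3 times as high as Addback EDTA 1, and the Addback NA libraries held at most 0.379 CPM, near the floor of 3 counts, which is 0.135 to 0.191 CPM over the libraries. SPRR1B, a cornified envelope precursor, was 9.999 and 13.1 CPM in Addback EDTA against 39.1 and 33.7 CPM in B4-4 EDTA (log2 −1.66, SE 0.27, adjusted p = 0.00295) and 0.280 and 0.488 against 29.3 and 57.1 CPM in NA (difference 5.13, SE 0.53, adjusted p = 0.000513). Of the 8 kallikrein genes, 7 were called lower in Addback than in B4-4 with NA, against 12.3% of all tested genes. The difference was called for 4, against 8.78% of all tested genes.

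Among the 5 largest differences towards lower values with EDTA, 4 were in genes whose order turned between the treatments. THBS1 was 966 and 628 CPM in Addback NA and 141 and 172 CPM in B4-4 NA, the reverse of its order with EDTA (difference −3.60, SE 0.24, adjusted p = 1.46e-05). GBP1, an interferon-induced GTPase, was 41.1 and 30.9 CPM in Addback EDTA against 67.8 and 64.1 CPM in B4-4 EDTA (log2 −0.87, SE 0.15, adjusted p = 0.00252), against 186 and 149 CPM in Addback NA and 25.3 and 29.8 CPM in B4-4 NA (difference −3.48, SE 0.21, adjusted p = 1.10e-05). ENC1, an actin-binding protein, was 11.2 and 9.16 CPM in Addback EDTA against 24.7 and 25.2 CPM in B4-4 EDTA (log2 −1.29, SE 0.29, adjusted p = 0.0134), against 22.4 and 18.5 and 5.11 and 1.72 CPM in NA (difference −3.86, SE 0.43, adjusted p = 0.000542). SPOCD1 was 3.97 and 1.35 CPM in Addback NA and 0.459 and 1.02 CPM in B4-4 NA (difference −5.90, SE 0.72, adjusted p = 0.000679). In all 4 the groups did not overlap in either treatment, where 60.0% of all tested genes had no overlap with EDTA. The ENC1 call with EDTA ended without Addback EDTA 2, B4-4 EDTA 1 or B4-4 EDTA 2. SEMA7A (difference −3.76, adjusted p = 0.00115) completed the 5 largest. By contrast, the differences of KCNK6 (−0.19, adjusted p = 0.814), SRGN (0.81, adjusted p = 0.116) and ITGB4 (−0.02, adjusted p = 0.985) did not pass the test.

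**Figure D5:**
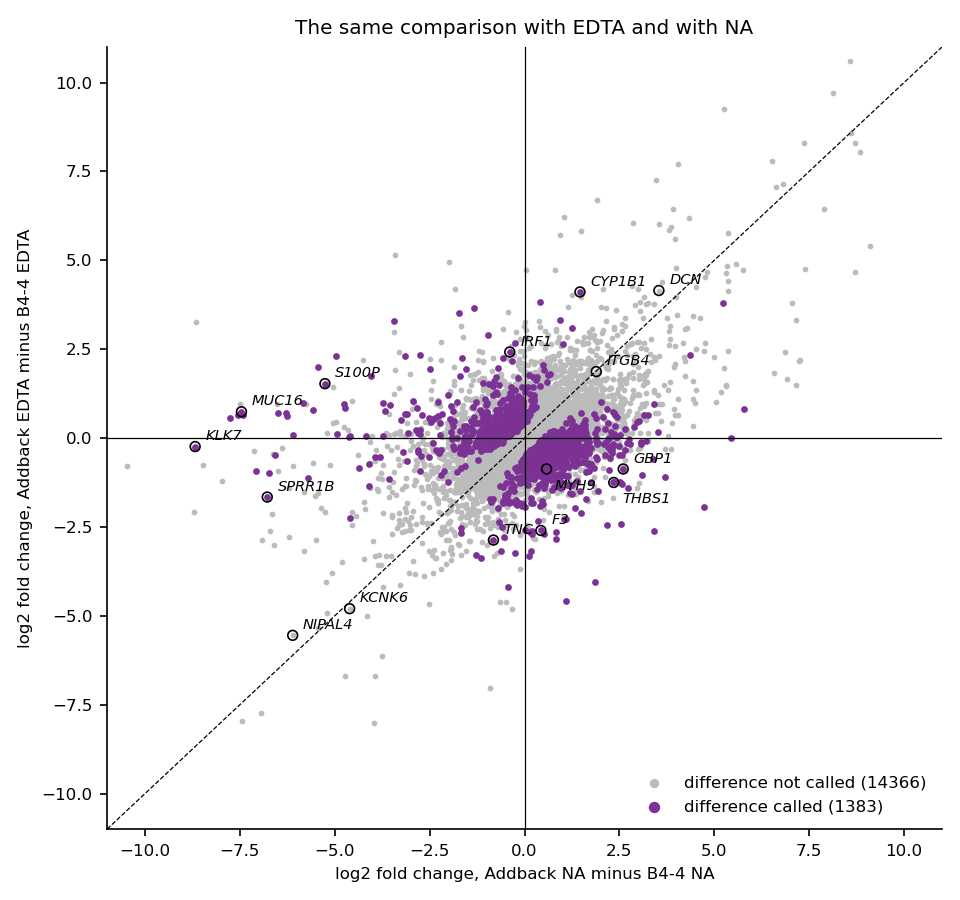
Each point is a tested gene, with the log2 fold change of Addback minus B4-4 in NA on the x axis and with EDTA on the y axis, and the dashed line marks equal values. Purple marks the 1383 genes whose difference between the 2 comparisons was called, and ITGB4, NIPAL4 and KCNK6 lie near the line while KLK7, MUC16, THBS1 and GBP1 lie far from it.

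The cell type of the labels was checked against defining markers. All 6 basal mammary epithelial markers were detected, with KRT5 at 5651 and 4614 CPM in Addback EDTA and 5592 and 5974 CPM in B4-4 EDTA and TP63 at 115 and 86.6 and 133 and 133 CPM, and of the 6 only CDH3 and KRT17 were called, both lower. Of 6 tested general epithelial markers, EPCAM rose from 104 and 102 CPM in B4-4 EDTA to 147 and 177 CPM in Addback EDTA (log2 0.65, SE 0.11, adjusted p = 0.00183) and CDH1 fell. Markers of other cell types were detected in part. Of 7 luminal markers 4 were tested and none was called by edgeR, DESeq2 or limma voom, with 0 at an unadjusted p under 0.05 and a summed level of 19.7 to 28.3 CPM in Addback EDTA and 30.9 to 32.4 CPM in B4-4 EDTA. GATA3 had 197 to 348 counts and FOXA1 128 to 270 over the 4 libraries. Of 6 muscle and myoepithelial markers 4 were tested and none was called by edgeR, with 1 at an unadjusted p under 0.05, 1 called by DESeq2 and 1 by limma voom. Their summed level was 15.3 to 32.5 CPM in Addback EDTA and 55.1 to 65.6 CPM in B4-4 EDTA, TAGLN had 108 and 415 counts in Addback EDTA against 885 and 1044 in B4-4 EDTA, and CNN1 had 0. Of 7 fibroblast markers 4 were tested and DCN and PDGFRB rose. PDGFRB was 2.46 and 0.910 CPM in Addback EDTA against 0.414 and 0.320 CPM in B4-4 EDTA (log2 2.17, SE 0.59, adjusted p = 0.0295), and its call ended without Addback EDTA 1 (adjusted p = 0.27), B4-4 EDTA 1 (adjusted p = 0.145) or B4-4 EDTA 2 (adjusted p = 0.181). COL1A2 and COL3A1 had at most 3 counts in any of the 4 libraries and COL1A1 was not called. The summed level of the fibroblast list was 34.4 to 65.5 CPM in Addback EDTA and 13.95 to 14.7 CPM in B4-4 EDTA, and its part in the matrix results was not tested. Of 6 endothelial markers only PECAM1 was tested, at 34.2 and 11.6 CPM in Addback EDTA against 3.46 and 3.35 CPM in B4-4 EDTA (log2 2.74, SE 0.63, adjusted p = 0.0278), a call that leaving out Addback EDTA 1 or either B4-4 EDTA library ended, while CDH5 had 0 counts in all 4 libraries. In Vector EDTA PECAM1 was 22.7 and 24.2 CPM, and Addback EDTA was not called different from it by edgeR (log2 −0.04, adjusted p = 0.969). Addback NA held 30.7 and 31.8 CPM of PECAM1. Like CDH5, CD3E and LYZ, of T cells and myeloid cells, had 0 counts in all 4 compared libraries. Of the leukocyte markers CD14 and ITGAM were tested and neither was called by edgeR, with 2 at an unadjusted p under 0.05, 1 called by DESeq2 and 1 by limma voom. CD14 had 603 and 151 counts in Addback EDTA and 137 and 150 in B4-4 EDTA, ITGAM had 8 and 1 against 19 and 19, and the summed level of the list was 8.64 to 35.7 CPM in Addback EDTA and 8.07 to 8.999 CPM in B4-4 EDTA. The part of these cell types in the results was not tested. Of 5 adipocyte markers none had enough counts to be tested, and ADIPOQ, FABP4 and LEP had 0 counts. In RNA from whole populations of cells, fewer cells of a kind and less RNA per cell cannot be told apart.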

How the data were processed

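Whole-number read counts per gene for 12 libraries were deposited by the authors as 1 table of 58233 genes. The submitters' processing notes name TopHat2 2.1.1, SAMtools 1.4.1 and featureCounts 1.5.3, and 3 build names (hg19, hg38, GRCh38) with no role for each. No source used here states the strand setting or annotation release. Symbols and coordinates came from GENCODE 29 (GRCh38), which named 57392 genes. No column belonged to another sample.

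Counts were filtered with filterByExpr (15749 genes kept, 99.87 to 99.92% of counts), scaled by TMM and fitted over 6 groups with edgeR 4.0.16 (limma 3.58.1, R 4.3.3) by quasi-likelihood, tested on simulated data. DESeq2 1.42.0, limma voom, other scalings, no filter, the compared groups alone, a replicate block and each library left out were alternatives. Counting intervals and the floor of 3 counts cover counting error only.

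Named genes were ITGB4, ITGA6, NECTIN4 and PROM2, up to 15 of the largest changes per direction (mean at least 5 CPM, groups not overlapping, called without each of the 4 compared libraries), up to 4 members with the smallest p of each list with at least 1 in 3 called, and the 5 largest differences between EDTA and NA per direction. Other genes named in the text (such as ACTN1, FLNA, EGFR, CCN1, PLEC and SLC7A11) were chosen after their values were seen. The members and the 47 lists were chosen with earlier results of these data known. Some genes of the lists are not reported here.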

Additional observations from a re-analysis of the deposited data

Results flagged for a closer look

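For 53 of the named results the difference between Addback and B4-4 was itself different with EDTA and with NA, by edgeR's test of the interaction at an adjusted p under 0.05. The values are the log2 fold change with EDTA minus that with NA. The groups of 4 to 10 samples needed to look for outlying single libraries do not occur here.

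Values above 0 were 8.44 for KLK7, 8.20 for MUC16, 6.79 for S100P, 5.75 for AZGP1, 5.13 for SPRR1B, 2.81 for IRF1, 2.65 for CYP1B1, 1.61 for TIPARP, 1.58 for FDPS, 1.33 for LPIN1, 1.29 for ACSL1, 1.27 for PROM2, 1.20 for BTG2, 1.08 for FASN, 0.78 for KRT17, 0.74 for FDFT1, 0.71 for RPS18, 0.53 for PGD, 0.53 for RPL19 and 0.48 for RPS6. The largest of these rest on Addback NA libraries close to the detection floor.

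Among genes lower in Addback than in B4-4 with EDTA and with a log2 fold change above 0 in NA, the values were −5.90 for SPOCD1, −3.86 for ENC1, −3.60 for THBS1, −3.48 for GBP1, −3.36 for ZNF365, −3.02 for F3, −2.95 for PLAU, −2.21 for NRG1, −1.92 for TPM4, −1.82 for PLAUR, −1.79 for ITGA2, −1.59 for ITGA5, −1.57 for VCL, −1.44 for MYH9, −1.37 for MARVELD2, −1.20 for TJP1, −0.98 for PVR, −0.87 for FAS, −0.83 for ITGA1, −0.81 for ITGA6, −0.67 for SFN and −0.52 for CTNND1. This group includes integrin chains and actin regulators. The remaining values below 0 were −3.76 for SEMA7A, −2.98 for LCP1, −2.05 for TNC, −2.00 for ADAMTS6, −1.45 for COL6A2, −1.20 for TGFA, −1.11 for LAMA3, −1.07 for TPM1, −0.92 for TGFBI, −0.81 for COL7A1 and −0.60 for COL17A1. The cause of these differences was not tested. The number of genes called for the difference depended on single NA and B4-4 EDTA libraries, as given with the processing.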

How the results depend on the processing

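Limits: with 2 libraries a side the number of calls depended on single libraries more than on the tool. Addback against B4-4 with EDTA gave 2217 calls, 2258 with DESeq2's size factors in edgeR, 2278 with upper-quartile factors, 2769 with no filter on low counts, 2356 with DESeq2, 2584 with limma voom and 2039 with the compared groups alone, and 692 to 3756 when 1 library was left out. The difference between EDTA and NA gave 1383 calls, 2103 with no filter on low counts, 641 with the compared groups alone and 403 to 2994 when 1 library was left out. Leaving out replicate 1 or 2 gave 403 and 672 calls for Addback NA, 456 and 534 for B4-4 EDTA, 2994 and 2416 for B4-4 NA, and 849 and 846 for Vector NA. Addback NA against B4-4 NA gave 3723 calls, 1946 with limma voom, 1290 with the compared groups alone and 1324 to 4680 when 1 library was left out, 1324 without Addback NA 1 and 1831 without Addback NA 2. Addback EDTA against Vector EDTA gave 4728 calls and 2718 to 6216 when 1 library was left out, 3144 without Addback EDTA 2 and 2718 without Vector EDTA 1. Where a library was left out, the lone sample of its group was assumed to vary like the other groups. The cause of these shifts was not tested.

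Of the 103 named genes called, all kept the call with both other scalings, 102 of 102 with a DESeq2 value kept it, and 102 kept it with limma voom, 99 with no filter and 92 with the compared groups alone. Without B4-4 EDTA 1 the number was 78, without B4-4 EDTA 2 it was 80, without Addback EDTA 1 it was 89 and without Addback EDTA 2 it was 98. Of the named genes that were not called, 3 changed sign with the Addback EDTA replicate left out. MUC16 was 1.5 without replicate 1 and −1.0 without replicate 2, NECTIN4 −0.54 and 0.91, and KLK7 0.47 and −1.73 (log2).

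Replicate numbers are shared by all groups, but nothing in the labels ties equal numbers together, and deviations of same-numbered libraries in the compared groups correlated at −0.179 over 9358 genes. With the replicate block the counts were 2192 for Addback against B4-4 with EDTA, 1370 for the difference between EDTA and NA, 3734 in NA and 4717 against Vector EDTA. With crossed pairing, chosen after seeing the data, they were 2074, 1299, 3593 and 4597.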

Other observations

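Most of the following lists had a share called near or below that of all tested genes, Notch being the exception. Of 21 tested interferon-induced genes 1 was called higher in Addback EDTA and 2 lower (median log2 0.00), and of 21 tested interleukin, CSF and chemokine genes 2 were lower (median log2 −0.22). Of 15 tested Notch receptor, ligand and target genes 1 was higher and 3 lower (median log2 −0.07). Of 16 tested BCL2 family genes, which set the threshold of apoptosis, 1 was higher and 1 lower (median log2 0.01). Of 28 tested ATF4, serine and amino acid genes 1 was higher (median log2 0.17), of 16 heat shock genes 1 was higher (median log2 0.01), and of 29 glycolysis and hypoxia genes 1 was higher and 1 lower (median log2 0.06). The share called was 26.7% for Notch and 14.3% for interferon-induced genes, and below the 14.1% of all tested genes for the others of these lists.

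By chromosome, the share called higher ran from 3.03% on chromosome 15 to 9.98% on chromosome 6, and the share called lower from 4.15% on chromosome 21 to 10.7% on chromosome 5. The median log2 fold change per chromosome ran from −0.08 on chromosome 16 to 0.09 on chromosome 21.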
